A study of Homo sapiens with 8 samples.

Results

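The SRC family and SYK tyrosine kinases and 2 of their regulators, 9 genes in all, were followed across 8 RNA-seq libraries of KCL-22. This human line was derived from blast-crisis chronic myeloid leukemia and depends on the BCR-ABL fusion kinase. The set held 6 SRC family kinases (LYN, FYN, YES1, LCK, SRC and FGR), SYK itself, and CSK and PTPN6 as regulators. Each gene was taken as the entry of the deposited table with that symbol, and each of the 9 symbols occurred once among the table's 31402 entries. Of the 9, 6 (LYN, FYN, YES1, LCK, CSK and PTPN6) had a mean of at least 1 FPKM (sequenced fragments scaled to transcript length and library size) over the 8 libraries and were tested. SRC, FGR and SYK stayed below that level, and LCK passed it only through Clone 1 and Clone 4.

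A lentiviral barcode library, ClonTracer, had been introduced into the cells behind all 8 libraries. The catalytic-resistant group had 3 libraries: the Imatinib population (2.5 µM for 27 days), the Nilotinib population (0.3 µM for 27 days) and Clone 3, taken from an imatinib-resistant population, resistant to imatinib and nilotinib, and never exposed to an allosteric inhibitor. The GNF-2-resistant group also had 3: the GNF-2 population (2.5 µM for 21 days) and Clones 1 and 2, taken from a GNF-2-resistant population and never exposed to a catalytic inhibitor. Clone 4, from a GNF-2-resistant population, was resistant to all 3 compounds and stood alone, as did the Vehicle population, kept in 0.1% DMSO for 7 days. Each clone was the expansion of 1 sorted cell. Imatinib and nilotinib occupy the catalytic site of ABL, while GNF-2 acts allosterically from a pocket elsewhere on the kinase. The labels do not state separate cultures for the members of a group, so p-values here measure only the spread between these libraries.

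SRC family kinases are membrane-anchored tyrosine kinases that relay signals from receptors and integrins. CSK phosphorylates a tyrosine in their tail and so holds them in a closed state, and CD45 (PTPRC) removes that phosphate in blood cells. PTPN6 encodes SHP-1, a tyrosine phosphatase of blood cells that is recruited by inhibitory receptors. SYK binds the phosphorylated activation motifs of immune receptors after SRC family kinases have modified them. In chronic myeloid leukemia, LYN and FYN are known as kinases that can act downstream of or beside BCR-ABL.

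Read counts were not used here, and depth was estimated from the smallest steps of FPKM in 623 intronless genes at 18600000 to 39900000 fragments per library, as a rough guide. FPKM summed to between 497775 and 583520 per library. ABL1, the targeted kinase, was listed at 65.3 to 110.5 FPKM in the 7 resistant libraries, against 105 FPKM in the Vehicle population, and BCR at 58.8 to 106 against 87.5 FPKM; FPKM per gene does not separate the fusion from the normal alleles. All 7 erythroid markers stayed below 1 FPKM. Of 9 myeloid markers, 7 reached 1 FPKM in some library but MPO and LYZ in none. CD3E, CD3G, CD2, CD247, TRAT1 and KLRD1 of the 9 T and NK cell markers, and MS4A1, PAX5 and BLNK of the 6 B cell markers, stayed below 1 FPKM. In some library 3 of the T and NK cell markers reached 1 FPKM, among them NKG7 (73.3 to 423 FPKM) and CD3D (0 to 32.0 FPKM). Of the B cell markers 2 did, among them CD79A at 17.4 to 98.9 FPKM.

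The 9 genes fell into a high and a low set, in every library. CSK, PTPN6, LYN, FYN and YES1 took the first 5 places in each library. CSK and LYN shared the top: LYN led in the Nilotinib population, Clone 2 and Clone 4, and CSK led in the other 5 libraries. In the Vehicle population the order was CSK at 85.5 FPKM, PTPN6 at 65.6, LYN at 64.7, YES1 at 25.0 and FYN at 22.6 FPKM, with SRC at 0.176, LCK at 0.129, FGR at 0.0536 and SYK listed at 0. FPKM is scaled by transcript length, so these levels can be set side by side between genes. PTPN6 and LYN, and YES1 and FYN, were neighbours in this order that differed by less than their own SDs within the replicated groups.

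**Figure D1:**
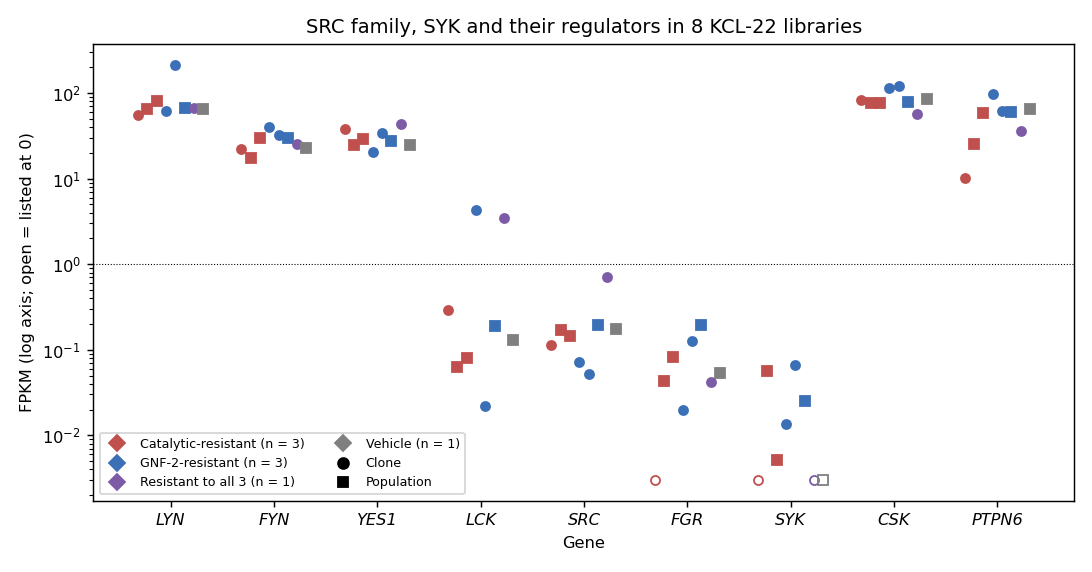
FPKM (log axis) of the 9 genes in each of the 8 libraries, coloured by resistance group, with circles for clones and squares for populations; open symbols at the bottom stand for values listed at 0. LYN, FYN, YES1, CSK and PTPN6 lie above 10 FPKM in all libraries, LCK passes 1 FPKM only in Clones 1 and 4, and SRC, FGR and SYK stay below 1 FPKM.

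LYN, a SRC family kinase of myeloid and B cells, was close to level in 7 libraries and high in 1. It was listed at 65.7 FPKM in the Imatinib population, 55.0 in Clone 3 and 81.5 in the Nilotinib population. The GNF-2-resistant libraries had 62.5 FPKM in Clone 1, 215 in Clone 2 and 67.8 in the GNF-2 population, with 66.7 FPKM in Clone 4 and 64.7 in the Vehicle population. Clone 2 stood 2.64-fold above the next highest library, and the remaining 7 spanned 55.0 to 81.5 FPKM, so the groups overlapped. Clone 2 had 3.32 times the level of the Vehicle population and 3.17 times that of the GNF-2 population. Of all tested genes, 7.51% were at least 2-fold higher in Clone 2 than in the Vehicle population with at least 5 FPKM in Clone 2, and 3.74% passed the same rule against the GNF-2 population. A narrower pattern, a level in Clone 2 at least 2-fold above each of the other 7 libraries, was shared by 154 genes (1.3%). No replicate of Clone 2 was available to check the difference. In this bulk RNA, more cells of a kind and more RNA per cell cannot be told apart.

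The other genes near LYN did not share its level in Clone 2. The entry spans bases 56792385 to 56925006 of chromosome 8 on GRCh37, the build of the deposited table. Of the 5 other genes within 500 kb that had at least 5 FPKM in some library, none was 2-fold from the median of the other 7 libraries in Clone 2, and their median log2 ratio was -0.05. CHCHD7 had 51.6 FPKM in Clone 2 against a median of 53.3 FPKM elsewhere, and PLAG1 had 12.6 against 13.0 FPKM. This window was examined after the LYN values had been seen.

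FYN, a broadly expressed SRC family kinase that also acts in lymphocyte receptors, separated the replicated groups without passing the test. It was listed at 17.3 FPKM in the Imatinib population, 22.1 in Clone 3 and 29.64 in the Nilotinib population, a mean of 23 ± 6.24 FPKM (SD, n = 3). The GNF-2-resistant libraries had 39.7 FPKM in Clone 1, 32.4 in Clone 2 and 29.72 in the GNF-2 population, a mean of 33.95 ± 5.19 (SD, n = 3), with 25.7 FPKM in Clone 4 and 22.6 in the Vehicle population. The groups did not overlap, although the Nilotinib and GNF-2 populations were nearly equal. Of all tested genes, 6.82% were likewise lower in the catalytic-resistant group without overlap. The catalytic-resistant minus GNF-2-resistant difference was -0.56 on the log2(FPKM + 1) scale (SE 0.23; limma adjusted p = 0.846 over 11843 genes). All 3 GNF-2-resistant libraries also lay above the Vehicle population, as they did for 33.8% of tested genes, and that difference of 0.56 (SE 0.32) had a limma adjusted p of 0.523.

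YES1, the close relative of SRC that most tissues express, spanned 20.7 to 43.2 FPKM. The Imatinib population had 24.9 FPKM, the Nilotinib population 28.8 and Clone 3 38.5. Clone 1 had 20.7 FPKM, Clone 2 34.6 and the GNF-2 population 27.8, with 43.2 FPKM in Clone 4 and 25.0 in the Vehicle population. Clones 4, 3 and 2 were the highest libraries and Clone 1 was the lowest, so clones and populations overlapped. Clone 4 stood at 1.73 times and Clone 3 at 1.54 times the Vehicle population. YES1 lies on chromosome 18 from 721591 to 812542 (GRCh37), and FYN on chromosome 6 from 111981534 to 112194655.

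LCK, the kinase of the T cell receptor pathway, was near the detection limit in 6 libraries and present in 2 clones of the same origin. It was listed at 0.0632 FPKM in the Imatinib population, 0.289 in Clone 3 and 0.0809 in the Nilotinib population. Clone 1 had 4.25 FPKM, Clone 2 0.0218 and the GNF-2 population 0.187, with 3.49 FPKM in Clone 4 and 0.129 in the Vehicle population. Clones 1 and 4, which resist GNF-2 and all 3 compounds in that order, were high, and Clone 2, the other GNF-2-derived clone, was the lowest of the 8. With the depth estimate, Clone 1 held roughly 367 fragments and Clone 4 162, against 1.06 to 16.5 in the other 6 libraries. Clone 1 had 32.8 times and Clone 4 27.0 times the Vehicle level, ratios that rest on roughly 7.17 fragments in the Vehicle population.

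T cell markers did not follow LCK across Clones 1 and 4, which differed in CD3D and ZAP70. CD3E, CD3G, CD2, CD247 and TRAT1 were at or below 0.109 FPKM in Clone 1 and listed at 0 in Clone 4. CD3D had 12.4 FPKM in Clone 1, the highest of the resistant libraries, and 0.410 in Clone 4, against 32.0 FPKM in the Vehicle population. NKG7, a granule gene of cytotoxic cells, had 211 FPKM in Clone 1 and 208 in Clone 4, within its range of 73.3 to 423 FPKM over all libraries. ZAP70, the SYK relative that works beside LCK in T cells, was highest in Clone 1 at 1.19 FPKM. It had 0.108 FPKM in Clone 4, against 0.304 in the Vehicle population. LCK spans bases 32716839 to 32751766 of chromosome 1 on GRCh37. For LCK the reference was the median of the Vehicle and resistant populations, with all clones left out. Of 14 other genes within 500 kb, none was 2-fold from that median in Clone 1. In Clone 4, 2 were 2-fold higher, FAM167B and MARCKSL1. These neighbours were also examined after the values had been seen.

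LCK and PTPN6 were the members with the widest spread over libraries, and each has 2 transcription starts in RefSeq. LCK is known for a distal and a proximal promoter, and PTPN6 for an upstream promoter used in epithelial cells and a downstream one used in blood cells. The 250 bases before each start are shown because the data give 1 value per gene and cannot say which start was used. They come from the RefSeq table on GRCh38.p14, all on the plus strand, and their coordinates belong to that build and not to that of the expression table. LCK start 1 is preceded by chr1:32251015-32251264 and LCK start 2 by chr1:32273871-32274120. PTPN6 start 1 is preceded by chr12:6946327-6946576 and PTPN6 start 2 by chr12:6951106-6951355. Capitals mark letters searched on both strands: AGGAAG as an ETS motif, then TGTGGT as a RUNX motif, and finally AGATAA as a GATA motif. A TATA box spelled TATAAA was also searched and found in none of the 4.
LCK start 1: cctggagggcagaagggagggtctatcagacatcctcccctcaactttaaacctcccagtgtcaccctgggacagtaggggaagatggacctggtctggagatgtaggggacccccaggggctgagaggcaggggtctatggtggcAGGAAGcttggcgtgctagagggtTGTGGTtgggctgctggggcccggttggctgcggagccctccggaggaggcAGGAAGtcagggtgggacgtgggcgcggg
LCK start 2: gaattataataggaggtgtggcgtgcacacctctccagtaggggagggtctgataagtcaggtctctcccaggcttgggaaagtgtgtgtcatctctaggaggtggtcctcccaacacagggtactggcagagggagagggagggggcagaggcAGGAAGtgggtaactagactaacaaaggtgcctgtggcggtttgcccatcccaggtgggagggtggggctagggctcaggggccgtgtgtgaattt
PTPN6 start 1: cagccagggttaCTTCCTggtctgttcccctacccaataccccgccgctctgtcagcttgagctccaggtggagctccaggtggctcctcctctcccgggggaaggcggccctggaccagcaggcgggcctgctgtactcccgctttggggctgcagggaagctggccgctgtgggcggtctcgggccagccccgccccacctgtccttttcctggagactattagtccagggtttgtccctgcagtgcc
PTPN6 start 2: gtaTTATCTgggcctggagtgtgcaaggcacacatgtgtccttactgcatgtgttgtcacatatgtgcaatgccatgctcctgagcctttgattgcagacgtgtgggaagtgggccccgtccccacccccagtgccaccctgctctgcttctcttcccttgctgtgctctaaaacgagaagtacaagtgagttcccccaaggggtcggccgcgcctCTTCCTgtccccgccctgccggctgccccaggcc
The ETS letters occurred 2 times before LCK start 1 and 1 time before each of the other 3, and they occur in 28.7% of 35116 windows of the same length. RUNX letters were found before LCK start 1 alone of the 4 (11% of all windows) and GATA letters before PTPN6 start 2 alone (9.17%), while TATA letters occur in 10.7%. No motif overlapped another. GC content was 64.4% and 57.6% before the LCK starts and 66.4% and 59.6% before the PTPN6 starts, against a median of 58.0% over all windows. The windows held 7 and 3 CpG pairs for LCK and 10 and 8 for PTPN6, against a median of 11. A match is a description of these letters only.

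PTPN6, the SHP-1 gene, had the widest range of the members above 10 FPKM, 9.47-fold from its lowest to its highest library. It was listed at 25.6 FPKM in the Imatinib population, 10.3 in Clone 3 and 59.2 in the Nilotinib population, a mean of 31.7 ± 25.0 (SD, n = 3). Clone 1 had 97.6 FPKM, Clone 2 61.3 and the GNF-2 population 59.9, a mean of 72.9 ± 21.4 (SD, n = 3), with 36.6 FPKM in Clone 4 and 65.6 in the Vehicle population. Clone 3 and the Imatinib population, which share imatinib as the selecting drug, were the lowest libraries, and the Nilotinib population (59.19 FPKM) lay just below the GNF-2 population (59.87 FPKM). The replicated groups therefore did not overlap, by a narrow margin, with the catalytic-resistant one lower, as for 6.82% of all tested genes. The catalytic-resistant minus GNF-2-resistant difference was -1.46 on the log2(FPKM + 1) scale (SE 0.58; limma adjusted p = 0.846), -0.85 without Clone 3 and -2.05 without the Nilotinib population. Against the Vehicle population the catalytic-resistant difference was -1.34 (SE 0.82; limma adjusted p = 1.0), and without Clone 3 it was -0.73.

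PTPN6 also made up 4 of the 6 member differences that met the rule for single libraries (at least 2-fold, at least 5 FPKM in the higher). LYN in Clone 2 made up the rest. The 6 were out of 117 in 13 library pairs. LCK, SRC, FGR and SYK stayed below 5 FPKM in every library, so their share of the 117 could not meet the rule. The Imatinib population had 0.391 times the Vehicle level of PTPN6, and 2.01% of tested genes were lower there by the same rule. Clone 3 had 0.157 times the Vehicle level, with 7.95% of genes at least 2-fold lower, and 0.402 times the level of the Imatinib population, with 6.99% lower. The Nilotinib population had 2.31 times the level of the Imatinib population, and 2.21% of genes were higher in that pair. No member met the rule in the other 7 pairs, where 4.58% (Nilotinib population over Vehicle), 7.58% (GNF-2 population over Vehicle), 15.5% (Clone 1 over Vehicle), 20.2% (Clone 4 over Vehicle), 9.77% (Clone 1 over GNF-2 population), 11.3% (Clone 4 over GNF-2 population) and 2.25% (GNF-2 over Nilotinib population) of genes did. A level in Clone 3 at least 2-fold below each of the other 7 libraries was found for 30 genes (0.253%). PTPN6 spans bases 7055739 to 7070479 of chromosome 12 on GRCh37. Of 34 other genes within 500 kb of PTPN6, 1 was 2-fold higher in Clone 3 than the median of the other libraries (CD4, 40.4 against 6.54 FPKM) and 1 was 2-fold lower (LOC678655, 11.3 against 25.0 FPKM), with a median log2 ratio of 0.10.

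CSK, the kinase that closes SRC family members, was nearly level in the 3 resistant populations (SD 1.05 FPKM) and varied in the clones. It was listed at 76.3 FPKM in the Imatinib population, 82.7 in Clone 3 and 76.05 in the Nilotinib population, a mean of 78.3 ± 3.77 (SD, n = 3). Clone 1 had 115 FPKM, Clone 2 122 and the GNF-2 population 78.0, a mean of 105 ± 23.8 (SD, n = 3), with 56.3 FPKM in Clone 4 and 85.5 in the Vehicle population. Clones 1 and 2 were the highest libraries and Clone 4, of the same origin, the lowest. The GNF-2 population lay within the catalytic-resistant range, so the replicated groups overlapped, and the catalytic-resistant minus GNF-2-resistant difference was -0.39 (SE 0.19; limma adjusted p = 0.846). All 3 catalytic-resistant libraries lay below the Vehicle population, as for 21.2% of tested genes, with a difference of -0.13 (SE 0.27; limma adjusted p = 1.0). CSK spans bases 75074424 to 75095539 of chromosome 15 on GRCh37, where the table also lists MIR4513 at 0 in every library.

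**Figure D2:**
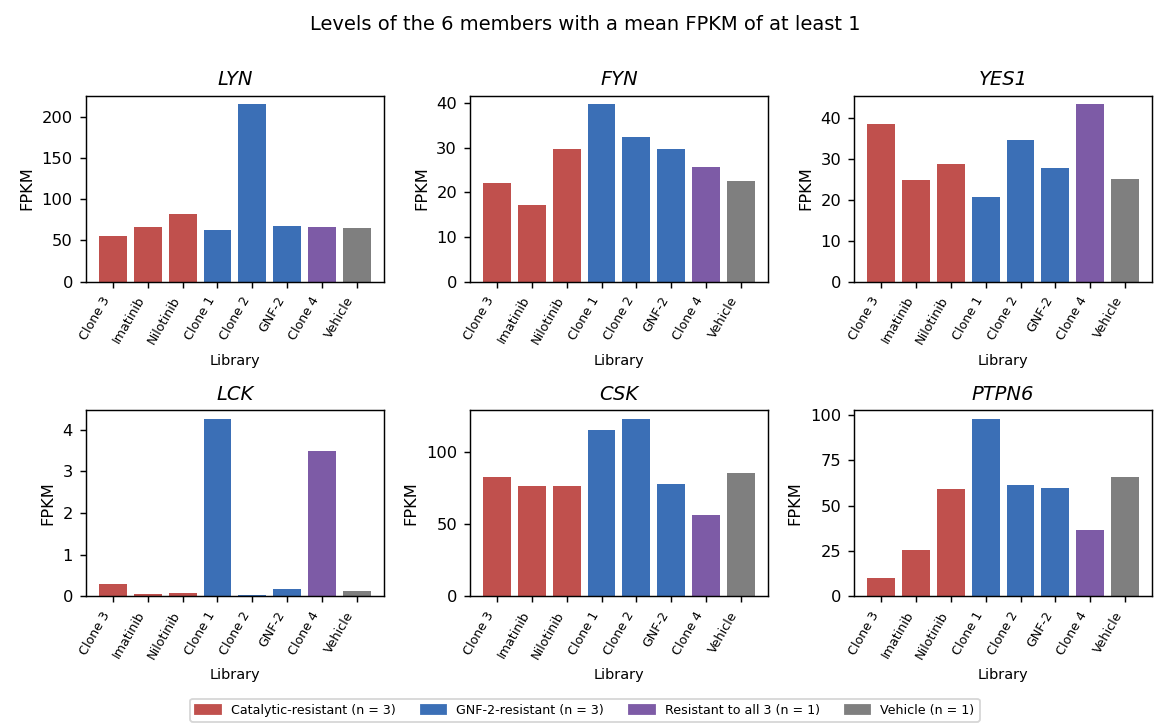
FPKM of the 6 tested members in each library (bars, 1 library each, linear axes from 0), ordered by resistance group with the Vehicle population at the right. LYN is high in Clone 2 (215 FPKM), LCK in Clones 1 and 4 (4.25 and 3.49 FPKM), and PTPN6 is lowest in Clone 3 (10.3 FPKM).

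SRC, FGR and SYK were barely detected. SRC had 0.172 FPKM in the Imatinib population, 0.114 in Clone 3 and 0.143 in the Nilotinib population. Clone 1 had 0.0724 FPKM, Clone 2 0.0517 and the GNF-2 population 0.193, with 0.712 FPKM in Clone 4 and 0.176 in the Vehicle population. Clone 4 stood 3.69-fold above the next highest library, at roughly 70.5 fragments by the depth estimate, against 5.34 to 28.0 in the other 7 libraries. An overlapping entry at SRC averaged 0.0488 FPKM, and the table does not show how shared reads were divided. FGR, a myeloid SRC family kinase, ranged from a listing at 0 in Clone 3 to 0.197 FPKM in the GNF-2 population. SYK did not exceed 0.0669 FPKM in any library and was listed at 0 in Clone 3, Clone 4 and the Vehicle population. BLK and FRK, relatives of the SRC family kinases, did not exceed 0.0501 FPKM. Groups were not compared at such levels.

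Summed over the 6 SRC family members, the family reached 282 FPKM in Clone 2 and 108 to 140.2 FPKM in the other 6 resistant libraries, against 113 FPKM in the Vehicle population. LYN made up 76.2% of that sum in Clone 2 and 47.4% to 60.8% in the other resistant libraries, against 57.4% in the Vehicle population. Without LYN, the sum was 67.2 FPKM in Clone 2, below the 73.2 FPKM of Clone 4, so the excess in Clone 2 was carried by LYN. LCK contributed 3.34% in Clone 1 and 2.5% in Clone 4, and less than 1% elsewhere. CSK relative to the summed family was 0.434 in Clone 2, 0.403 in Clone 4 and 0.902 in Clone 1, against 0.759 in the Vehicle population. Clone 2 and Clone 4 reached similar ratios from different terms: Clone 2 combined the highest CSK level with the highest family sum, and Clone 4 had the lowest CSK level. PTPN6 relative to LYN was lowest in Clone 3 (0.187) and Clone 2 (0.286) and highest in Clone 1 (1.56), against 1.01 in the Vehicle population. These ratios are of mRNA levels and have 1 library each.

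**Figure D3:**
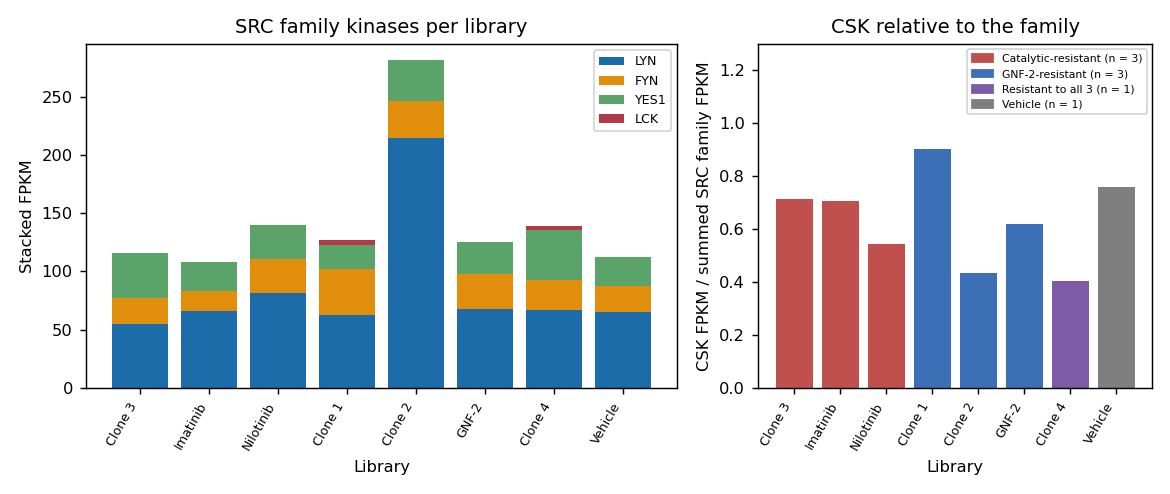
Left, FPKM of LYN, FYN, YES1 and LCK stacked per library; SRC and FGR together are too low to draw. Right, CSK FPKM divided by the summed FPKM of the 6 SRC family members, coloured by resistance group; Clone 2 stands out at left through LYN, and Clones 2 and 4 have the lowest ratios at right (0.434 and 0.403).

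The design allowed 4 comparisons of groups, the first 2 of which share the Vehicle library as their only control. Of the 6 tested members, 0 passed a limma adjusted p of 0.05 in any of them. LCK is counted among the 6, although it met the level filter only through Clones 1 and 4. A filter at a mean FPKM of 5 leaves LCK out, and 0 of the 5 members left passed in any comparison. In GNF-2-resistant minus vehicle 0.0929% of all tested genes passed, and 0 of 6 members had an unadjusted p under 0.05, against 11.1% of genes. In catalytic-resistant minus vehicle 0.0338% passed, and 0 of 6 members had an unadjusted p under 0.05, against 2.69%. In catalytic-resistant minus GNF-2-resistant 0.0338% passed, and FYN and PTPN6 had an unadjusted p under 0.05, against 4.87% of genes; both were also non-overlapping and lower, against 6.82%. In clones minus resistant populations 7.46% passed, and 0 of 6 members had an unadjusted p under 0.05, against 27.1%; none of the 6 separated clones from populations, against 26.3%. With 4 residual degrees of freedom for the resistance groups, a missing call does not show that levels were equal.

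Side by side, the members' median log2 difference was 0.41 in GNF-2-resistant minus vehicle (all genes 0.04), 0.00 in catalytic-resistant minus vehicle (all genes 0.02), -0.55 in catalytic-resistant minus GNF-2-resistant (all genes -0.01) and 0.23 in clones minus resistant populations (all genes -0.08). For LYN and LCK the GNF-2-resistant values rested on 1 clone each. LYN differed from vehicle by 0.58 (SE 0.67; limma adjusted p = 0.727) with Clone 2 and by 0.01 without it. LCK differed by 0.71 with Clone 1 and by -0.04 without it. LCK had entered the fit only through Clones 1 and 4, so its differences are given as values with no test. The medians of the members above include LCK. The log2(FPKM + 1) scale understates changes of low genes.

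**Figure D4:**
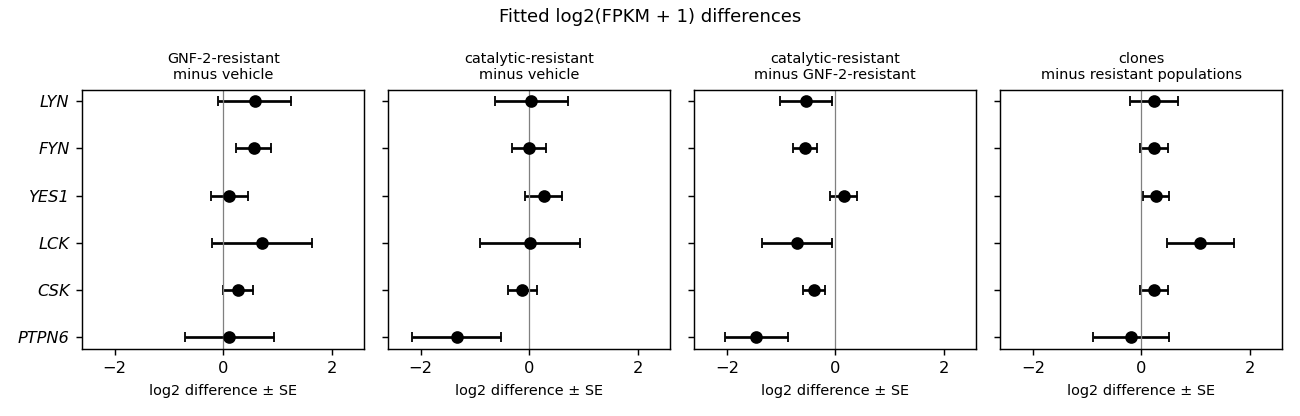
Fitted differences of the 6 tested members on the log2(FPKM + 1) scale (points) with their standard errors (bars) in the 4 comparisons, the reference named after the word minus. FYN (-0.56) and PTPN6 (-1.46) lie furthest from 0 relative to their errors in catalytic-resistant minus GNF-2-resistant. None passes the adjusted threshold. LCK met the level filter only through Clones 1 and 4 and is drawn as values with no test.

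The members differed in how far they varied over the 8 libraries. The SD of log2(FPKM + 1) was 0.98 for both PTPN6 and LCK, higher than in 94.0% of all tested genes, and 0.62 for LYN, higher than in 83.9%. FYN, CSK and YES1 had SDs of 0.36, 0.35 and 0.34, close to the middle (58.2%, 56.4% and 55.3%). Among genes of a similar mean level, PTPN6 stood higher than 97.0% and LYN higher than 91.3%. A range of at least 2-fold was found for all 6 tested members and for 53.4% of all tested genes.

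Genes whose pattern over the 8 libraries was most like that of each member were named from 8893 genes, as a description. The libraries share a cell line, and several share an origin. For LYN these were BRWD1 (Pearson r = 0.984, Spearman rho = 0.786), SUN2 (r = 0.969, rho = 0.738) and KIAA0182 (r = 0.968, rho = 0.905), all highest in Clone 2. With the 2 libraries farthest from the median LYN level left out, r was 0.668 for BRWD1, 0.441 for SUN2 and 0.925 for KIAA0182, so the relations to BRWD1 and SUN2 weakened without those libraries. For LCK they were OVCA2 (r = 0.968, rho = 0.857), UQCR11 (r = 0.954, rho = 0.738) and TMEM141 (r = 0.953, rho = 0.810), and r without the 2 farthest libraries was 0.778, 0.523 and 0.304 in that order. PTPN6 was most like OSGEP (r = 0.938, rho = 0.905), CDC26 (r = 0.933, rho = 0.929) and COMTD1 (r = 0.922, rho = 0.643), with r of 0.890, 0.725 and 0.798 over the 6 libraries left. CSK was like HNRNPA1 (r = 0.952, rho = 1) and ZNF296 (r = 0.934, rho = 0.667), with r of 0.948 and 0.733. For FYN they were RLTPR (r = 0.924, rho = 0.905), OTUD6B (r = 0.917, rho = 0.929) and TRPV2 (r = 0.911, rho = 0.929), with r of 0.880, 0.792 and 0.921. YES1 was most like GRINA (r = 0.938, rho = 0.929), TMEM189 (r = 0.927, rho = 0.929) and PHF20L1 (r = 0.916, rho = 0.929), with r of 0.879, 0.817 and 0.953.

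The pathway around the kinases was read from 7 lists of 110 genes, of which 72 had a mean FPKM of at least 1 and a value in every library. FCGR2A and LAIR1 lacked a value in some library and were left out. In the 3 comparisons of resistance groups, 0 of the 72 passed a limma adjusted p of 0.05; 7 (GNF-2-resistant minus vehicle), 5 (catalytic-resistant minus vehicle) and 7 (catalytic-resistant minus GNF-2-resistant) had an unadjusted p under 0.05. The shares over all tested genes in the same order were 11.1%, 2.69% and 4.87%. In clones minus resistant populations 0 were higher and 8 lower (11.1%), against 5.78% of all tested genes lower at the same threshold. TREM1, 1 of the 8, had passed the level filter only through the populations. Over all tested genes that comparison had 199 higher and 684 lower, a split that became 339 and 510 after rescaling by median ratios and 436 and 491 after quantile normalization. The median of the 72 was -0.26, against -0.08 for all genes. None of the 8 passed with the selecting drug of each clone's source population as a block. This alternative was chosen after the data had been seen. With TREM1 left out, the differences in it ran from -0.67 to -1.33 (limma adjusted p from 0.0659 to 0.225). With resistance group as a covariate 3 of the 8 passed, INPP5D, PLCG1 and PTK2B. Of the 8, 0 passed without the Nilotinib population. Only TREM1 of the 8 passed without the Imatinib population or the GNF-2 population, and only BTK without Clone 1.

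PTPRC, which encodes the CD45 phosphatase that reopens SRC family kinases, was called lower in the clones when origin was not in the model. It was listed at 31.1 FPKM in Clone 3, 20.7 in Clone 1, 35.3 in Clone 2 and 16.5 in Clone 4, against 59.2 FPKM in the Imatinib population, 58.3 in the GNF-2 population and 66.0 in the Nilotinib population. All 4 clones lay below the 3 populations, as for 18.1% of all tested genes, and the Vehicle population was higher still, at 88.0 FPKM. The difference was -1.27 on the log2(FPKM + 1) scale (SE 0.25; limma adjusted p = 0.0307). The call was lost with resistance group as a covariate and with origin as a block (limma adjusted p = 0.212), and it held under 11 of 18 alternatives. PTPRC was the only one of 7 listed phosphatases to pass, against 5.78% of all tested genes called lower. PTPN11, which encodes SHP-2, an activator of RAS signalling, had 56.3 to 82.5 FPKM in the resistant libraries against 45.7 FPKM in the Vehicle population, and did not pass. All 7 resistant libraries lay above the Vehicle population for 19.8% of tested genes. PTPRE had 9.05 FPKM in Clone 3 and 3.34 to 3.55 in the other 3 clones, against 7.72 to 9.95 in the resistant populations.

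Of 27 tested adaptors and effectors, 5 were called lower in the clones, against 5.78% of all tested genes. BTK, the TEC family kinase that SYK signalling activates, had 7.37 to 19.5 FPKM in the clones against 29.7 to 34.7 FPKM in the resistant populations (log2 difference -1.37, SE 0.28; limma adjusted p = 0.0318). The phospholipases C-gamma that such kinases activate were both called lower, with log2 differences of -0.92 for PLCG1 (SE 0.21; limma adjusted p = 0.0420) and -0.54 for PLCG2 (SE 0.13; limma adjusted p = 0.0498). PTK2B, a focal adhesion kinase relative, had 33.0 to 57.9 FPKM in the clones against 84.5 to 112 FPKM in the resistant populations (-1.02, SE 0.20; limma adjusted p = 0.0315). HCLS1, a cortactin relative of blood cells that SYK and LYN phosphorylate, had 22.1 to 44.9 FPKM in the clones against 55.5 to 69.5 FPKM in the resistant populations (-1.05, SE 0.23; limma adjusted p = 0.0383). All 5 had clones below populations without overlap, as did 18.1% of all tested genes. In the Vehicle population PLCG1 had 12.2 FPKM, within the clones' 7.39 to 13.3 and below the resistant populations' 16.0 to 19.4. The Vehicle levels of BTK (31.7 FPKM), PLCG2 (16.3), PTK2B (75.8) and HCLS1 (61.2) lay above all 4 clones. BTK, PLCG2 and HCLS1 were lost with resistance group as a covariate, and all 5 with origin as a block. PLCG2 passed under 2 of 18 alternatives, PLCG1 under 8, HCLS1 under 9, BTK under 11 and PTK2B under 12. The other 22 adaptors did not pass, CARD9 (log2 difference 1.59), CTTN (-1.08), PXN (-0.89) and LAT (0.48) among them. CTTN, cortactin itself, had 1.73 FPKM in Clone 1 and 3.01 in Clone 2, against 11.3 in the Vehicle population and 11.7 to 18.6 in the other 5 resistant libraries.

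Receptors and adaptors that carry immune receptor activation motifs, the docking sites of SYK, varied by library. TREM1, a myeloid receptor that signals through TYROBP, was at or below 0.0685 FPKM in the 4 clones against 1.31 to 5.49 FPKM in the resistant populations and 15.0 FPKM in the Vehicle population. Clone 2 had it listed at 0. TREM1 was the only one of 9 tested partners called, and since the level filter was met only through the populations, its values are given with no test. FCER1G, the gamma chain of Fc receptors, had 323 FPKM in Clone 2 and 37.1 in Clone 1, against 14.5 FPKM in the Vehicle population and 0.554 to 9.85 in the other 5 resistant libraries. TYROBP was also highest in Clone 2, at 9.71 FPKM against 2.84 FPKM in the Vehicle population, and was listed at 0 in Clone 3. Clone 2, the library with the highest LYN level, thus had the highest levels of both chains, while FCGR1A, an Fc receptor that pairs with FCER1G, was lowest there at 0.349 FPKM against 32.3 FPKM in the Vehicle population. CLEC1B, a platelet receptor with a single such motif, had 0.408 FPKM in Clone 2 and 3.04 in Clone 3, against 40.6 in the Vehicle population. CD79A, a B cell receptor chain, had 17.4 to 98.9 FPKM in the resistant libraries against 28.6 FPKM in the Vehicle population.

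Partners of PTPN6 were uneven as well. INPP5D, which encodes the lipid phosphatase SHIP1, had 23.4 to 42.0 FPKM in the clones against 51.2 to 56.0 FPKM in the resistant populations (-0.82, SE 0.19, limma adjusted p = 0.0452). As for 18.1% of all tested genes, the clones lay below these populations without overlap. INPP5D was 1 of 6 tested genes of its list to pass, against 5.78% of all tested genes called lower. The call held under 8 of 18 alternatives and was lost with origin as a block (limma adjusted p = 0.225). CD300A, an inhibitory receptor that recruits SHP-1, had 2.97 FPKM in Clone 3 and 107 in Clone 2, against 61.2 in the Vehicle population. SIGLEC6 had 82.9 FPKM in Clone 4 and 2.93 to 44.9 in the other 6 resistant libraries, against 118 in the Vehicle population. CD33 had 0.157 FPKM in Clone 3 and 0.779 to 3.35 in the other resistant libraries, against 2.57 in the Vehicle population. CLEC12A had 0.846 to 3.498 FPKM in the resistant libraries against 4.13 FPKM in the Vehicle population. All 7 resistant libraries were lower than vehicle for 13.9% of tested genes.

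Genes listed as negative regulators of SRC family kinases did not pass in any comparison (0 of 13 by limma). At an unadjusted p under 0.05 there were 4 in clones minus resistant populations, against 27.1% of all tested genes. There were 2 in GNF-2-resistant minus vehicle (11.1% of all tested genes), 1 in catalytic-resistant minus vehicle (2.69%) and 2 in catalytic-resistant minus GNF-2-resistant (4.87%). MATK, the CSK relative of blood cells, had 7.66 FPKM in Clone 4 and 14.8 to 33.9 in the other 6 resistant libraries, against 9.51 in the Vehicle population; its GNF-2-resistant minus vehicle difference was 1.36 (SE 0.40; limma adjusted p = 0.426). SOCS1, a feedback inhibitor of JAK signalling, had 59.9 FPKM in the Imatinib population, 121 in Clone 3 and 80.9 in the Nilotinib population. The GNF-2-resistant libraries had 13.6 FPKM in Clone 1, 10.9 in Clone 2 and 35.8 in the GNF-2 population, with 47.6 FPKM in Clone 4 and 124 in the Vehicle population. The replicated groups did not overlap for SOCS1, with the catalytic-resistant one higher, as for 4.08% of all tested genes. The catalytic-resistant minus GNF-2-resistant difference was 2.19 (SE 0.46, limma adjusted p = 0.846). SLA, the SRC-like adaptor, had 7.61 to 14.5 FPKM in catalytic-resistant libraries and 19.0 to 39.5 in GNF-2-resistant ones, against 28.5 in the Vehicle population. These groups did not overlap, with the catalytic-resistant one lower, as for 6.82% of all tested genes. The SLA difference between them was -1.37 (SE 0.35, limma adjusted p = 0.846). CBLB, a ubiquitin ligase, had 2.603 to 5.13 FPKM in the clones against 5.69 to 9.64 in the resistant populations. The difference was -0.74 (SE 0.24, limma adjusted p = 0.0979). The clones lay below the populations without overlap, as for 18.1% of all tested genes.

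Integrins and adhesion receptors, which signal through SRC family kinases and SYK, had 0 of 10 tested genes past the limma threshold in each comparison. At an unadjusted p under 0.05 there were 3 in clones minus resistant populations, against 27.1% of all tested genes. There were 2 in GNF-2-resistant minus vehicle (11.1% of all tested genes), 1 in catalytic-resistant minus vehicle (2.69%) and 1 in catalytic-resistant minus GNF-2-resistant (4.87%). ITGB3 had 90.1 FPKM in Clone 2, 3.25 in Clone 1 and 1.44 in Clone 3, against 10.7 FPKM in the Vehicle population. ITGA2B, its partner in the platelet integrin, had 7.97 FPKM in Clone 1 and 5.05 in Clone 2, against 0.345 in the Vehicle population. ITGB2, the leukocyte integrin chain, had 55.5 FPKM in the Nilotinib population and 7.63 in Clone 2, against 28.0 in the Vehicle population. SELPLG, the selectin ligand PSGL-1, had 9.001 to 24.7 FPKM in the resistant libraries against 33.8 FPKM in the Vehicle population and did not pass. All 7 resistant libraries lay below the Vehicle population for 13.9% of tested genes.

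Markers moved alongside these values and their part was not tested. The summed 6 megakaryocyte markers, carried by GP9, were 124 FPKM in Clone 2 and 20.8 to 65.0 in the other resistant libraries, against 33.8 in the Vehicle population. PF4 and PPBP, defining genes of that lineage, stayed at or below 0.158 FPKM in all libraries. The summed 5 mast cell and basophil markers, carried by HDC, were 137 to 315 FPKM in the clones against 439.9 to 521 in the resistant populations and 692 FPKM in the Vehicle population, with KIT at or below 0.00524 and MS4A2 at 0. TPSAB1, a mast cell tryptase of the same list, had 48.1 FPKM in Clone 4 and 0.841 to 5.36 in the other 6 resistant libraries, against 7.58 in the Vehicle population. The summed 9 myeloid markers were 15.1 to 39.0 FPKM in the clones against 20.8 to 39.8 in the resistant populations and 48.5 FPKM in the Vehicle population. SPI1, a myeloid transcription factor among them, was listed at 0 in Clones 3 and 4, the clones with the lowest PTPN6 levels, and at 14.7 and 15.8 FPKM in Clones 1 and 2, against 29.9 FPKM in the Vehicle population. CD14, a monocyte marker of the same list, was highest in those 2 clones, at 34.6 FPKM in Clone 3 and 11.8 in Clone 4, against 4.06 in the Vehicle population. HDC itself had 136 to 314 FPKM in the clones against 435 to 519 in the resistant populations and 684 in the Vehicle population. For HDC the clones lay below the resistant populations without overlap, as for 18.1% of all tested genes.

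**Figure D5:**
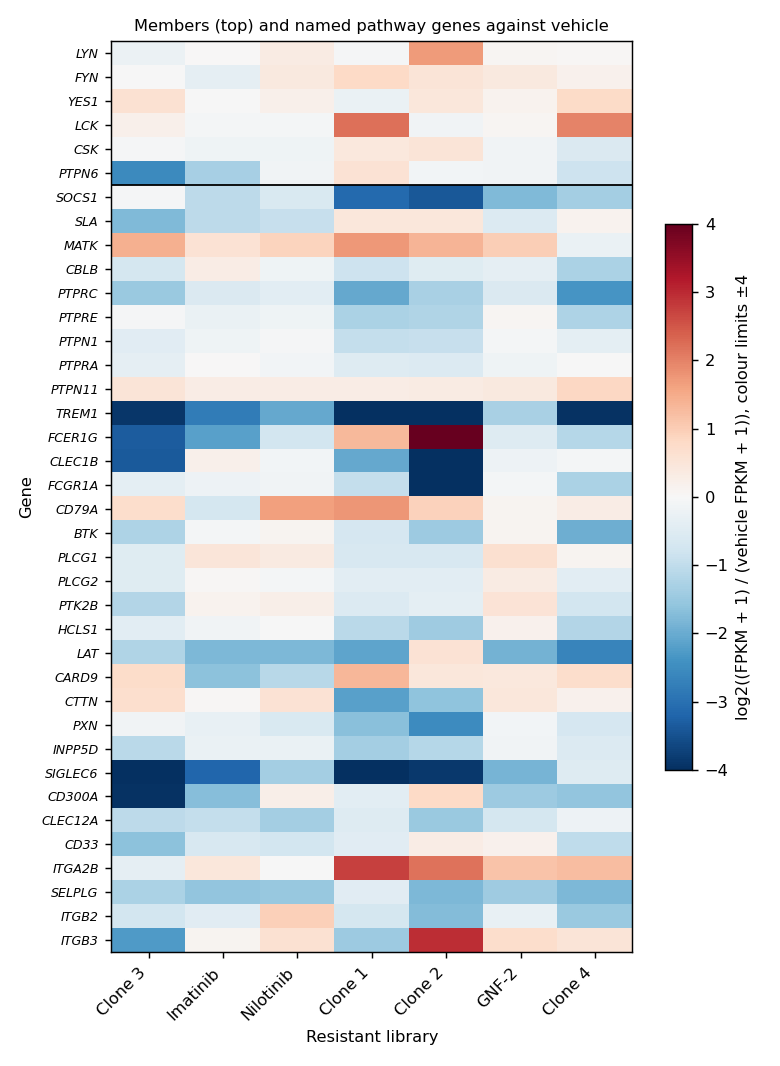
Colour gives log2((FPKM + 1)/(Vehicle FPKM + 1)) of the 6 tested members (above the line) and the named pathway genes in each of the 7 resistant libraries, with colours limited at 4 in both directions. LYN and FCER1G are high in Clone 2, LCK in Clones 1 and 4, PTPN6 is low in Clone 3, and PTPRC and TREM1 are low in all 4 clones.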

How the data were processed

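Total RNA of 8 KCL-22 libraries was sequenced. The authors deposited 1 FPKM table covering every library. Per the submitters' processing notes, Cufflinks 1.3 and TopHat 1.3 were used with GRCh37. The header states no unit, so FPKM rests on the tool and the values. Strand, counting options and read counts are not given in the sources used here. The members and lists were chosen with earlier results of these data known. Of 31402 entries, 70 with a missing value were left out, and the 11843 genes averaging 1 FPKM or more were tested; 401 of these were listed at 0 in some library.

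limma 3.58.1 in R 4.3.3 fitted log2(FPKM + 1) over all 8 libraries with 1 mean per resistance group (or per kind, for clones against resistant populations), lmFit and eBayes with a variance trend, two-sided, with Benjamini-Hochberg adjustment over all genes and a threshold of 0.05. The single Vehicle and Clone 4 libraries borrow their spread from the replicated groups. Single libraries were compared by a 2-fold rule with at least 5 FPKM in the higher, without a test. A fold on this log scale understates low genes. Depth estimates are rough, cover counting only, and give no interval.

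Genes named were the members, list genes past the threshold in any comparison, up to 4 per list by size of difference above 0 in all libraries, and the 3 genes most like each member; TYROBP, CD3D, ZAP70, SPI1, CD4, LOC678655, FAM167B, MARCKSL1, CHCHD7 and PLAG1 were named after their values were seen. A few genes that the rule or the lists hold are not reported here. Promoter windows are RefSeq's on GRCh38.p14, with 7 of 9 members matched (LYN and SRC are named only). Alternatives were a pseudocount of 0.1 or 5, a filter at a mean FPKM of 5 or none, median-ratio rescaling, quantile normalization, variance without trend or robust, covariates, leaving out each replicate and, chosen after seeing the data, origin as a block in clones minus resistant populations. Python 3.11.15 ran pandas 2.3.3, numpy 2.4.6 and matplotlib 3.10.9.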

Additional observations from a re-analysis of the deposited data

Results flagged for a closer look

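Among 41 named genes, each clone's FPKM was set against the other 3 clones by Dixon's ratio (the gap to the nearest clone over the range of the 4). The mark was its 95% critical value for 4 values. The pathway genes among the 41 had been named for their differences in these same libraries. No chance rate can therefore be set beside the number of flags. LYN stood apart in Clone 2 (ratio 0.927, high) and SRC in Clone 4 (0.905, high, at 0.712 FPKM). Among pathway genes, FCER1G (0.887) and ITGB3 (0.837) stood apart as high in Clone 2, SIGLEC6 (0.947) and PLCG1 (0.838) as high in Clone 4, and PTPRE (0.962) as high in Clone 3. PLCG1 is among the genes called lower in the clones, and its Clone 4 value of 13.3 FPKM still lay below the 16.0 to 19.4 FPKM of the resistant populations. The clones differ in what they resist, so they are not replicates of 1 condition.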

How the results depend on the processing

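No member was called in any comparison under the alternatives run (63 counts, all 0). Counts of members at least 2-fold apart between single libraries, 6 of 117, became 10 with at least 1 FPKM in the higher library, which adds LCK in Clones 1 and 4, 17 at 1.5-fold and 6 after median-ratio rescaling. Of the members' log2 differences, 354 kept their direction under an alternative and 20 reversed; the cause was not tested. Outside left-out libraries these were, with clone against population as a covariate, YES1 in GNF-2-resistant minus vehicle (-0.041), LYN (-0.02) and LCK (-0.19) in catalytic-resistant minus vehicle, and in the same comparison FYN with quantile normalization (0.022) and LCK with a pseudocount of 0.1 (-0.024).

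With 1 library left out in turn, GNF-2-resistant minus vehicle ranged from -0.059 to 0.299 for YES1, -0.036 to 1.14 for LCK and -0.11 to 0.24 for PTPN6. Catalytic-resistant minus vehicle ranged from -0.10 to 0.18 for LYN, -0.20 to 0.18 for FYN and -0.075 to 0.064 for LCK. Catalytic-resistant minus GNF-2-resistant ranged from -0.85 to 0.031 for LYN, -0.037 to 0.32 for YES1 and -1.13 to 0.049 for LCK, and clones minus resistant populations from -0.22 to 0.43 for LYN, -0.019 to 0.36 for FYN and -0.63 to 0.41 for PTPN6. PTPN6 in catalytic-resistant minus GNF-2-resistant stayed between -2.05 and -0.85, and FYN between -0.76 and -0.38.

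Over all genes, the 4 comparisons called 1 to 79, 0 to 59, 1 to 10 and 13 to 1851 genes under alternatives. Of the 8 pathway genes called in clones minus resistant populations, 2 passed without a filter, 4 after median-ratio rescaling, 3 with resistance group as a covariate and 8 with the Vehicle population among the populations, where 12 were called in all. These counts include TREM1, which met the level filter only through the populations. With 1 library left out, 0 of the 8 passed without the Nilotinib population, 4 without Clone 3 and 5 without Clone 2 or Clone 4. Only TREM1 of the 8 passed without the Imatinib population or the GNF-2 population, and only BTK without Clone 1. With origin as a block, chosen after seeing the data (GNF-2 population with Clones 1, 2 and 4, Imatinib population with Clone 3), 0 of the 8 and 13 of all genes passed, with 3 residual degrees of freedom. Replicate numbers were given in accession order and pair no libraries, so they were not used for pairing. Origin as a block was the fit that linked clones to the population with the same selecting drug. Depth limits SRC, FGR, SYK and LCK outside Clones 1 and 4.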
